A study of Mus musculus with 11 samples.

Results

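Brains dosed in 2 ways with an oligonucleotide against Malat1 were compared: 3 libraries of nonTV:Malat1, an antisense oligonucleotide (ASO) against Malat1 carried by a molecule that does not bind the transferrin receptor (TfR), and 2 libraries of Malat1 ASO, the same target addressed by free oligonucleotide. They were chosen by their treatment labels and hold 47277 of the 110304 nuclei of 11 single-nucleus RNA libraries. The mice carried a human TfR knock-in on both alleles per the labels, although the deposited metadata name the strain C57BL/6J. All groups received 4 weekly intravenous doses and were harvested 72 h after the last, with nonTV:Malat1 (titled RSV-ASO) at 60 mg/kg and Malat1 ASO at 2.5 mg/kg, a dose the submitters call equivalent in ASO. Both sexes were used, with female mice in replicate 1 (age 2.33 months) and male mice in replicates 4 (age 2.57 months) and 5 (age 2.33 months). nonTV:Malat1 had replicates 1, 4 and 5, and Malat1 ASO had replicates 1 and 5, while its replicate 4 was not analysed here. ATV:BACE1 (57 mg/kg, n = 3), which binds the TfR and carries no ASO, served as the control without oligonucleotide, and OTV:Malat1 (60 mg/kg, n = 3) is the TfR-binding conjugate. The labels give the brain region as posterior and the metadata as cortex.

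Malat1 is a long non-coding RNA that stays in the nucleus, where it gathers at nuclear speckles. It is among the most abundant transcripts of nuclear preparations, so single-nucleus sequencing can follow its share of the captured RNA. An ASO of the RNase H kind pairs with its target RNA, and the enzyme RNase H1 then cuts that RNA, which can happen inside the nucleus. A free ASO hardly crosses the intact blood-brain barrier, whose wall is formed by endothelial cells sealed by tight junctions and surrounded by pericytes. Choroid plexus capillaries, by contrast, are leaky. In the annotation of the mouse genome (GENCODE M21, GRCm38), Malat1 lies on the minus strand of chromosome 19, from 5795690 to 5802672, a span of 6983 bases.

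The 5 libraries held 33235994 to 38588299 unique molecular identifiers (UMIs, each standing for 1 captured RNA molecule), 8444 to 10344 nuclei and medians of 2691 to 3164 UMIs per nucleus. Of 47001 barcode sequences in them, 275 occurred in more than 1 library. Nuclei carried the submitters' class names. Nuclei named oligodendrocytes held 9812 CPM of 6 oligodendrocyte markers, and those named vascular endothelium held 13366 CPM of 6 endothelial markers. For marker sums, CPM is the share of all UMIs of the class, scaled to a common total. Nuclei named pericytes went partly against their name, with 6354 CPM of 6 pericyte markers and 10866 CPM of the endothelial ones. The class named glia held 4771 CPM of 7 choroid plexus markers and 2009 CPM of 6 ependymal markers beside 2515 CPM of 6 astrocyte markers, so the name is used below only as the submitters' label. Nuclei named vascular smooth muscle held 7069 CPM of the pericyte markers and 984 CPM of 3 smooth muscle markers. Those named leptomeningeal cells held 2840 CPM of the astrocyte markers and 2545 CPM of 5 leptomeningeal markers. Both names are likewise used only as labels. These sums are over all 11 libraries. CPM of single genes by library are given on another scale, after the filter on low counts and TMM, edgeR's scaling of library sizes. They do not compare directly with marker sums.

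Over all nuclei the Malat1 level was nearly the same in both groups. Malat1 made up 7.49%, 7.61% and 8.39% of the UMIs in nonTV:Malat1 replicates 1, 4 and 5, against 7.87% and 8.15% in Malat1 ASO replicates 1 and 5. The values overlapped. edgeR's quasi-likelihood test, with the replicate number as a block, gave a log2 difference of -0.03 for nonTV:Malat1 minus Malat1 ASO (SE 0.139, 95% interval -0.33 to 0.27, adjusted p = 0.975). ATV:BACE1 had 7.79% ± 0.515 (SD, n = 3) and OTV:Malat1 4.66% ± 0.571 (SD, n = 3). The sections that follow take the classes apart, with Malat1 given as a share of the UMIs of that class in that library.

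**Figure D1:**
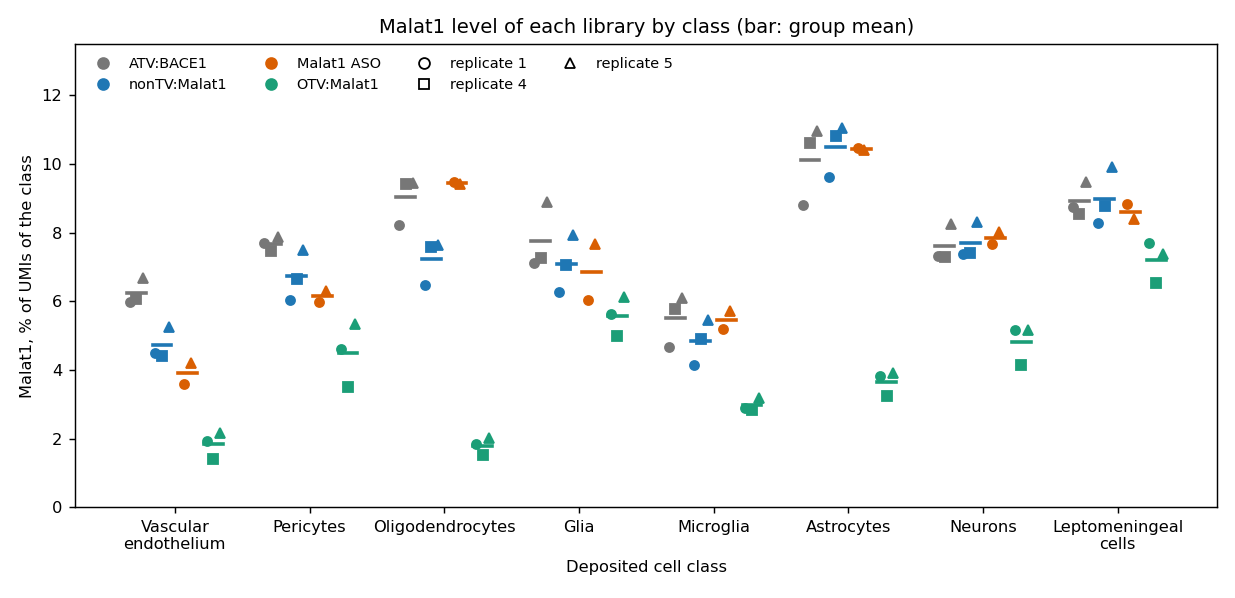
Malat1 as a percentage of the UMIs of the class (y axis) for every library, in 8 deposited classes (x axis), with colours for the 4 groups, symbols for replicates 1, 4 and 5, and a bar at each group mean. In oligodendrocytes the Malat1 ASO libraries (9.42% and 9.48%) lie above all nonTV:Malat1 libraries (6.48% to 7.64%), whereas in vascular endothelium they lie below (3.60% and 4.20% against 4.42% to 5.24%).

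Vascular endothelium, the cells that line brain vessels and meet a drug in blood first, had less Malat1 with the free ASO than with the conjugate in these libraries. Malat1 stood at 4.50%, 4.42% and 5.24% of endothelial UMIs in nonTV:Malat1 replicates 1, 4 and 5. In Malat1 ASO replicates 1 and 5 it stood at 3.60% and 4.20%. The groups did not overlap, which also held for 17.3% of all 4449 genes tested in this class. Within a batch the ratio hardly moved: the nonTV:Malat1 level was 125.0% of the Malat1 ASO level in replicate 1 and 124.9% in replicate 5. The blocked log2 difference was 0.37 (SE 0.131, 95% interval 0.11 to 0.64), with an unadjusted p of 0.00744 and an adjusted p of 0.775 over all genes of the class, so it was not called. An exact two-sided permutation test of the library shares gave p = 0.1, the smallest that 3 libraries against 2 allow.

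Set beside the control, both groups had less endothelial Malat1. ATV:BACE1 replicates 1, 4 and 5 had 5.98%, 6.06% and 6.68%, above every library of nonTV:Malat1 and Malat1 ASO. The mean share was 75.7% of control in nonTV:Malat1 and 62.5% of control in Malat1 ASO, and these figures share their control libraries. Against the control of the same replicate it was 75.2%, 72.9% and 78.6% in nonTV:Malat1 replicates 1, 4 and 5. In Malat1 ASO replicates 1 and 5 it was 60.2% and 62.9%. edgeR called the fall for Malat1 ASO minus ATV:BACE1 (-0.81, SE 0.133, adjusted p = 0.00109) and not the difference for nonTV:Malat1 minus ATV:BACE1 (-0.44, SE 0.112, adjusted p = 0.286). At these thresholds the called genes were 12 of 4449 (0.270%) and 0 of 4449 (0.00%). OTV:Malat1 stood at 1.93%, 1.41% and 2.16%. Marker sums of other cells in the endothelial nuclei mostly overlapped between the groups. Neuronal markers, for example, summed to 856 to 1199 CPM in nonTV:Malat1 and 612 to 2011 CPM in Malat1 ASO. Only the choroid plexus and astrocyte sums did not overlap, and 17.3% of the 4449 single genes tested in this class did not either. The 7 choroid plexus markers, mostly Ttr (1434 of 1472 CPM over all 11 libraries), summed to 1653 to 1978 CPM in nonTV:Malat1 and 1146 to 1456 CPM in Malat1 ASO. ATV:BACE1 covered 1065 to 2028 CPM. The 6 astrocyte markers summed to 633 to 788 CPM in nonTV:Malat1, 239 to 464 CPM in Malat1 ASO and 716 to 1343 CPM in ATV:BACE1. The part of either list in the result was not tested. In the endothelial nuclei without a UMI of the 6 pericyte markers, 132 in nonTV:Malat1 and 78 in Malat1 ASO, Malat1 was 4.81% ± 0.153 (SD, n = 3) in nonTV:Malat1 and 3.95% ± 0.202 (SD, n = 2) in Malat1 ASO, without overlap. In those with such a UMI, 191 and 126, it was 4.66% ± 0.577 and 3.89% ± 0.505, also without overlap. This split was chosen after the data had been seen. Both parts come from the nuclei of the class result and are not separate evidence.

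Nuclei named pericytes, the contractile cells that wrap capillaries, had overlapping Malat1 levels in the 2 groups. They were 6.03%, 6.65% and 7.51% in nonTV:Malat1 replicates 1, 4 and 5, against 5.98% and 6.31% in Malat1 ASO replicates 1 and 5. The log2 difference was 0.21 (SE 0.157, 95% interval -0.11 to 0.53, adjusted p = 0.987). In replicate 1 the nonTV:Malat1 level was 100.7% of the Malat1 ASO level, and in replicate 5 it was 119%. The ATV:BACE1 libraries stood at 7.48% to 7.88%. Against them the log2 difference was -0.19 in nonTV:Malat1 (SE 0.135, adjusted p = 0.999) and -0.40 in Malat1 ASO (SE 0.157, unadjusted p = 0.0152, adjusted p = 0.758).

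Most of these nuclei carried endothelial RNA. In those with at least 1 UMI of the endothelial markers, 235 in nonTV:Malat1 and 153 in Malat1 ASO, Malat1 was 6.54% ± 0.661 (SD, n = 3) in nonTV:Malat1, 6.0% ± 0.195 (SD, n = 2) in Malat1 ASO and 7.61% ± 0.182 (SD, n = 3) in ATV:BACE1. In those without one, 26 and 18, Malat1 was 11.9% ± 1.85 and 11.6% ± 0.618, with 9.61% ± 0.791 in ATV:BACE1. The nuclei without one were few and shallow, with median depths of 581 to 740 UMIs in the 5 libraries. In nuclei with more pericyte than endothelial UMIs, 82 and 42, Malat1 was 8.19% ± 1.01 (SD, n = 3) in nonTV:Malat1, 7.99% ± 0.0849 (SD, n = 2) in Malat1 ASO and 8.95% ± 0.266 (SD, n = 3) in ATV:BACE1, with overlap between the first 2 groups. Below the ATV:BACE1 range of 8.74% to 9.25% lay both Malat1 ASO libraries (7.93% and 8.05%) and nonTV:Malat1 replicates 1 and 4 (7.46% and 7.77%), while nonTV:Malat1 replicate 5 had 9.34%. These splits were chosen after the data had been seen, and the difference between the parts was not tested.

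Oligodendrocytes, the myelin-forming cells of the parenchyma behind the barrier, showed the opposite order. Malat1 stood at 6.48%, 7.59% and 7.64% of their UMIs in nonTV:Malat1 replicates 1, 4 and 5. Malat1 ASO replicates 1 and 5 had 9.48% and 9.42%. The groups did not overlap, as for 14.8% of the 12362 genes tested in this class. Within a batch the nonTV:Malat1 level was 68.4% of the Malat1 ASO level in replicate 1 and 81.1% in replicate 5. The blocked log2 difference was -0.43 (SE 0.125, 95% interval -0.69 to -0.18), with an unadjusted p of 0.00143 and an adjusted p of 0.504, so this too was not called. It passed the threshold without ATV:BACE1 replicate 1 (-0.41, adjusted p = 0.0238), while DESeq2 gave -0.42 with an adjusted p of 1.00. It also passed in edgeR without the filter on low counts, over 22853 genes (-0.45, adjusted p = 9.11e-18). Gm47283 had the same adjusted p in that fit. The Malat1 difference hardly moved from -0.43, so this small p-value does not reflect a larger effect. Why it fell was not tested, and it is not taken as stronger evidence than the main fit. The exact permutation test of the shares gave p = 0.1.

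The control libraries stood with the free ASO here. ATV:BACE1 replicates 1, 4 and 5 had 8.23%, 9.43% and 9.46% Malat1 in oligodendrocytes. The mean share was 80.1% of control in nonTV:Malat1 and 104.6% in Malat1 ASO, with shared control libraries. Against the control of the same replicate it was 78.8%, 80.4% and 80.8% in nonTV:Malat1 replicates 1, 4 and 5. In Malat1 ASO replicates 1 and 5 it was 115.2% and 99.6%. The log2 difference from ATV:BACE1 was -0.35 in nonTV:Malat1 (unadjusted p = 0.00297, adjusted p = 1.00) and 0.09 in Malat1 ASO (adjusted p = 0.950). OTV:Malat1 had 1.85%, 1.52% and 2.03%. Oligodendrocyte markers did not separate the groups: their sum was 9088 to 10356 CPM in nonTV:Malat1 and 9639 to 9883 CPM in Malat1 ASO. Choroid plexus markers, mostly Ttr (1449 of 1490 CPM over all 11 libraries), summed to 1514 to 1909 CPM in nonTV:Malat1 and 1274 to 1362 CPM in Malat1 ASO. ATV:BACE1 covered 996 to 2304 CPM, and the part of these markers in the result was not tested.

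The lower Malat1 of nonTV:Malat1 was found in the submitters' cluster 3, which held 90.7% of the nuclei named oligodendrocytes. There Malat1 was 6.25%, 7.38% and 7.33% in nonTV:Malat1 replicates 1, 4 and 5, against 9.77% and 9.24% in Malat1 ASO replicates 1 and 5. The nuclei of cluster 5, 175 in nonTV:Malat1 and 172 in Malat1 ASO, had 8.38% ± 0.504 (SD, n = 3) and 8.44% ± 0.905 (SD, n = 2), with 7.97% ± 1.05 (SD, n = 3) in ATV:BACE1. The difference between the clusters was not tested.

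**Figure D2:**
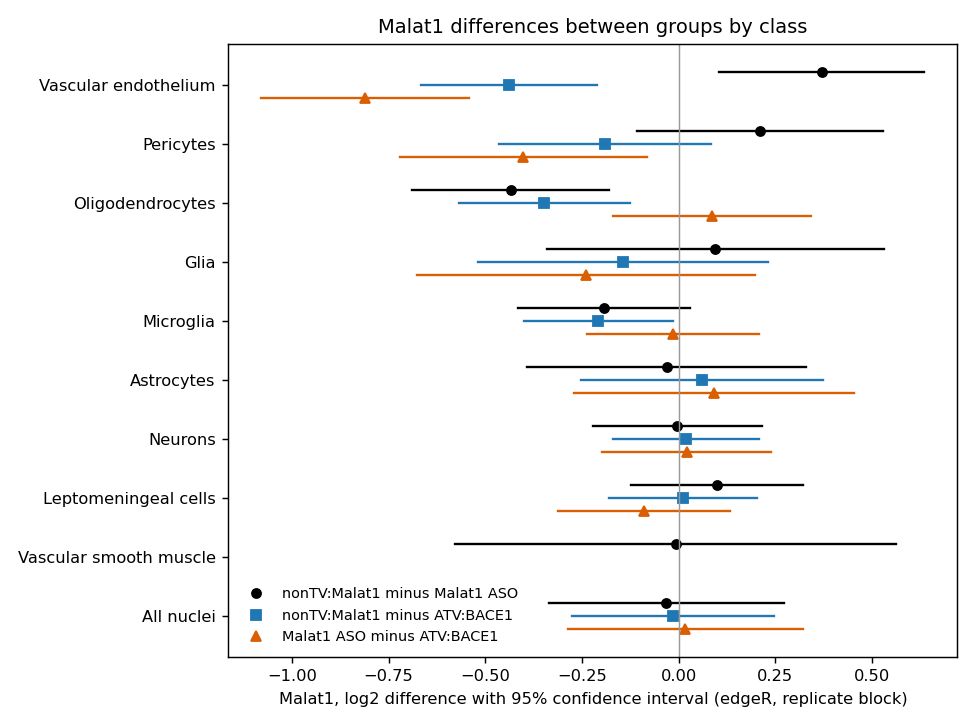
Log2 differences of Malat1 with 95% confidence intervals (x axis) from the blocked edgeR fit of each class (y axis), for nonTV:Malat1 minus Malat1 ASO (black) and for each of them minus ATV:BACE1 (blue and orange, sharing the control libraries). The black interval lies above 0 in vascular endothelium (0.11 to 0.64), below 0 in oligodendrocytes (-0.69 to -0.18) and spans 0 in the other 7 classes and in all nuclei.

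The class named glia, rich in choroid plexus and ependymal RNA, had overlapping Malat1 levels. They were 6.29%, 7.05% and 7.92% in nonTV:Malat1 replicates 1, 4 and 5, against 6.05% and 7.66% in Malat1 ASO replicates 1 and 5. The log2 difference was 0.10 (SE 0.215, 95% interval -0.34 to 0.53, adjusted p = 0.999), and the nonTV:Malat1 level was 104% and 103% of the Malat1 ASO level in replicates 1 and 5. ATV:BACE1 replicates had 7.11%, 7.27% and 8.90%, and neither group differed from them past the threshold (-0.14, adjusted p = 0.990, and -0.24, adjusted p = 0.919).

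Splitting these nuclei by marker UMIs, a choice made after seeing the data, gave 815 over all 4 groups with more choroid plexus than ependymal UMIs (256 in nonTV:Malat1, 130 in Malat1 ASO) and 680 with the reverse (214 and 116). Ttr was left out of the choroid plexus markers for this split. Choroid plexus epithelium makes cerebrospinal fluid and receives plasma solutes from its leaky capillaries. In the choroid plexus-rich nuclei Malat1 was 6.05%, 6.20% and 7.53% in nonTV:Malat1 replicates 1, 4 and 5, against 5.08% and 6.37% in Malat1 ASO replicates 1 and 5. The means were 91.6% and 79.6% of the ATV:BACE1 mean of 7.20%, which covers replicates 1, 4 and 5, whereas Malat1 ASO has only 1 and 5. Ependymal-rich nuclei, which line the ventricles, had 6.67%, 7.94% and 8.34% in nonTV:Malat1 and 7.81% and 8.38% in Malat1 ASO, beside a control mean of 8.52%. Both subsets overlapped between the groups.

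In the other classes the intervals spanned 0. Astrocytes, whose endfeet cover the vessels, had 9.64% to 11.1% Malat1 in nonTV:Malat1 and 10.4% to 10.5% in Malat1 ASO (log2 difference -0.03, SE 0.177). Neurons had 7.37% to 8.33% and 7.66% to 8.03% (-0.0029, SE 0.101). Microglia, the resident phagocytes, had 4.14%, 4.92% and 5.45% in nonTV:Malat1 and 5.18% and 5.73% in Malat1 ASO, with a log2 difference of -0.19 (SE 0.111, 95% interval -0.42 to 0.03, unadjusted p = 0.0868, adjusted p = 0.999). Nuclei named leptomeningeal cells differed by 0.10 (SE 0.110) and those named vascular smooth muscle, with 22 to 41 nuclei a library, by -0.01 (SE 0.260, in a fit of 8 libraries). Perivascular macrophages, with 10 to 15 nuclei a library, were too few to test and had 4.39%, 6.03% and 5.78% in nonTV:Malat1 and 6.11% and 5.63% in Malat1 ASO.

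Whether 2 classes differ in their response needs a test of that difference. The largest contrast was between vascular endothelium and oligodendrocytes. The log2 ratio of endothelial to oligodendrocyte Malat1 within a library was -0.53, -0.78 and -0.54 in nonTV:Malat1 replicates 1, 4 and 5. In Malat1 ASO replicates 1 and 5 the same ratio was -1.40 and -1.17, below each nonTV:Malat1 library. That order was fixed by the shares given above, which parted in opposite directions in the 2 classes. The permutation test of this ratio is therefore not separate evidence. ATV:BACE1 replicates had -0.46, -0.64 and -0.50, so their ratios and those of nonTV:Malat1 covered a shared range. The group means were -0.62 ± 0.141 (SD, n = 3) and -1.28 ± 0.162 (SD, n = 2), with an exact permutation p of 0.1 (0.2 after Benjamini-Hochberg adjustment over 6 pairs of classes).

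The fit over 44 sums of library and class gave a difference between endothelium and oligodendrocytes of 0.78 on the log2 scale (SE 0.385, 95% interval 0.02 to 1.55). Its unadjusted p was 0.0450 and its adjusted p over 11367 genes 1.00, so edgeR did not call it. In the same contrast 524 of the 11367 genes had an unadjusted p under 0.05, and Malat1 ranked 465 by p. DESeq2 called the same difference (0.81, adjusted p = 2.60e-07). limma on differences within libraries, added after seeing the data, gave 0.78 (SE 0.240, unadjusted p = 0.00427, adjusted p = 1.00). Without the replicate block edgeR gave 0.66 (adjusted p = 1.00). The difference was 0.66 to 0.81 over 9 alternatives and 0.63 to 1.01 without 1 library, and it passed the threshold only in DESeq2.

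**Figure D3:**
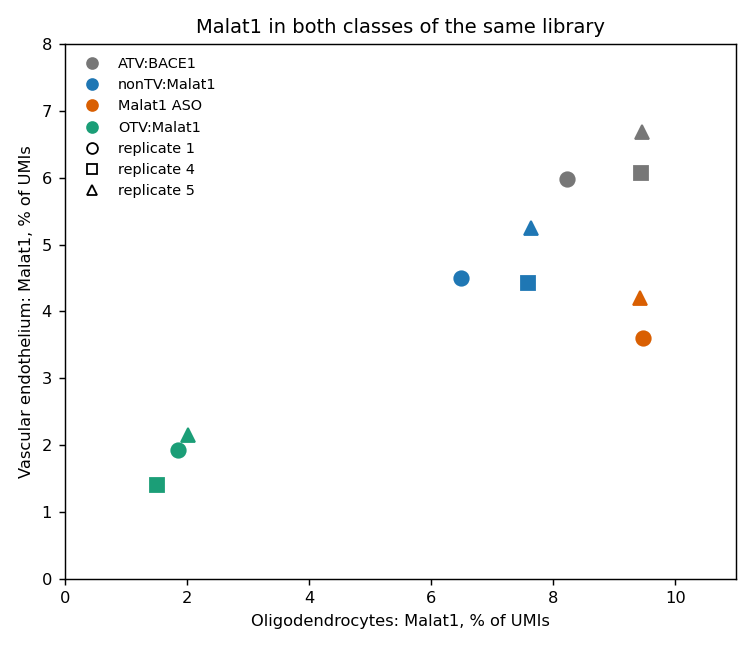
Malat1 as a percentage of UMIs in vascular endothelium (y axis) against oligodendrocytes (x axis) of the same library, 1 point per library, coloured by group with symbols for the replicate. The Malat1 ASO points combine control-like oligodendrocyte values (9.42% and 9.48%) with low endothelial ones (3.60% and 4.20%), and the nonTV:Malat1 points lie lower than ATV:BACE1 replicates of the same number on both axes.

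Nuclei named pericytes were set against oligodendrocytes in the same way. The within-library log2 ratio of their Malat1 to that of oligodendrocytes was -0.11, -0.19 and -0.03 in nonTV:Malat1 replicates 1, 4 and 5, against -0.66 and -0.58 in Malat1 ASO replicates 1 and 5. The groups did not overlap in this ratio (exact permutation p = 0.1, adjusted 0.2). The pericyte shares themselves overlapped, while the oligodendrocyte shares in the ratio had already parted. The permutation test of this ratio is therefore not separate evidence. edgeR gave a difference of 0.62 (SE 0.384, adjusted p = 1.00), and DESeq2 called it at 0.63 (adjusted p = 0.00130). Oligodendrocytes against glia gave ratios of 0.04, 0.11 and -0.05 in nonTV:Malat1 and 0.65 and 0.30 in Malat1 ASO, with an edgeR difference of -0.57 (SE 0.384, adjusted p = 1.00) and a DESeq2 adjusted p of 0.0694. Glial shares overlapped too, so the same limit applies to the ratios of oligodendrocytes to glia. The 3 pairs among endothelium, pericytes and glia differed by 0.06 to 0.22 (SE 0.384 to 0.385) and were called by none of the 3 tools.

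A lower class level can come from all nuclei or from some. Each nucleus with at least 1000 UMIs was therefore thinned at random to 1000, and a nucleus counted as low in Malat1 if it lay within the lowest 5% of control nuclei of its class. Among oligodendrocytes, where the threshold was 53.2 Malat1 UMIs per 1000, low nuclei made up 36.8%, 23.5% and 25.4% in nonTV:Malat1 replicates 1, 4 and 5. They made up 3.43% and 5.06% in Malat1 ASO replicates 1 and 5 and 11.2%, 4.40% and 2.57% in ATV:BACE1. The difference of the means was 24.3 percentage points without overlap between the groups (exact permutation p = 0.1, 0.467 after adjustment over 7 classes). The median oligodendrocyte of nonTV:Malat1 held 62 to 74 Malat1 UMIs per 1000 and that of Malat1 ASO 88 to 90, so the middle of the distribution was lower as well as its low end.

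Endothelium showed the reverse order nucleus by nucleus. With a threshold of 41.7 per 1000, low nuclei were 39 of 86, 14 of 28 and 8 of 40 in nonTV:Malat1 replicates 1, 4 and 5, a mean share of 38.4%. Malat1 ASO replicates 1 and 5 had 36 of 52 (69.2%) and 30 of 49 (61.2%). ATV:BACE1 had 8.33%, 4.55% and 2.22%. The median endothelial nucleus held 45, 41 and 52 Malat1 UMIs per 1000 in nonTV:Malat1 and 34 and 36 in Malat1 ASO. The means differed by -26.8 points without overlap (exact permutation p = 0.2). Of the 3 nonTV:Malat1 libraries, replicate 5 had the smallest share of low nuclei and the highest median. The ATV:BACE1 medians were 56.5, 59.5 and 65 in replicates 1, 4 and 5, so its own control was the highest too. Without nonTV:Malat1 replicate 5 the difference in low nuclei was -17.6 points.

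Nuclei named pericytes had 30.6%, 18.2% and 10.2% low nuclei in nonTV:Malat1 replicates 1, 4 and 5, against 43.4% and 41.8% in Malat1 ASO replicates 1 and 5. Their difference of -22.9 points (exact permutation p = 0.2) was -14.4 points when nuclei were thinned to 500 UMIs. Glia had 21.1%, 23.6% and 15.6% against 32.8% and 22.3%, which overlapped (difference -7.46 points, exact permutation p = 0.3). Without Malat1 ASO replicate 1 the glial difference was -2.21 points, and without Malat1 ASO replicate 5 it was -12.7 points. In both groups these glial shares exceeded the 3.77% to 9.73% of ATV:BACE1. Neurons, astrocytes and leptomeningeal cells had mean low shares of 4.85% to 9.31% in the 2 groups, with 4.84% to 6.54% in ATV:BACE1. Nuclei under 1000 UMIs were left out, 53.8% of nonTV:Malat1 and 49.3% of Malat1 ASO oligodendrocytes and 52.3% and 50.5% of endothelial nuclei. Without thinning the mean shares were 27.5% and 4.39% in oligodendrocytes and 39.3% and 68.1% in endothelium.

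**Figure D4:**
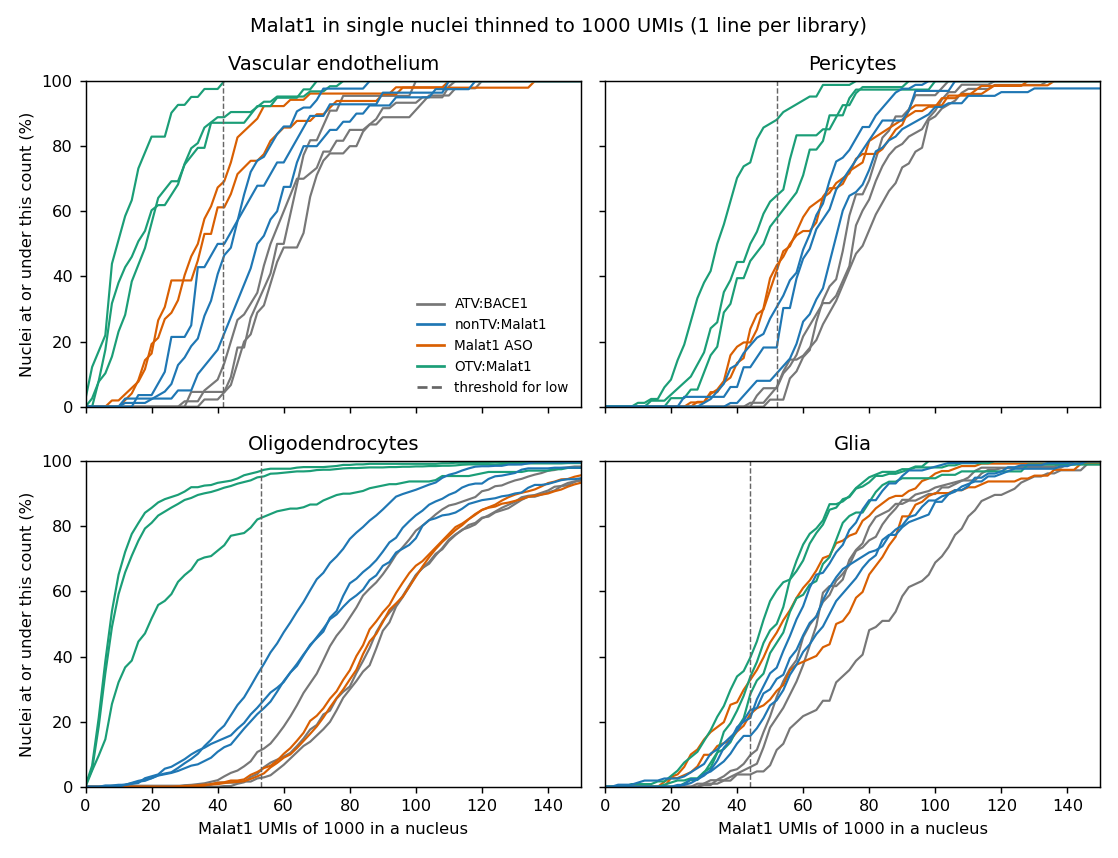
Cumulative percentage of nuclei (y axis) at or under each Malat1 count after thinning to 1000 UMIs (x axis), 1 line per library, coloured by group, with the threshold for a low nucleus dashed. In endothelium the Malat1 ASO lines (61.2% and 69.2% low) lie left of the nonTV:Malat1 lines (mean 38.4%), and in oligodendrocytes the order turns round (3.43% and 5.06% against 23.5% to 36.8%).

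Numbers of nuclei per class were also compared. Oligodendrocytes made up 11.6% to 13.2% of nuclei in nonTV:Malat1 and 13.6% to 15.7% in Malat1 ASO, with a log2 difference of -0.28 (SE 0.170, unadjusted p = 0.102, adjusted p = 0.996). Vascular endothelium made up 0.793% to 1.39% and 1.02% to 1.07%, pericytes 0.474% to 1.31% and 0.831% to 0.926%, and glia 1.43% to 1.87% and 1.13% to 1.46%. edgeR called none of the 10 classes, and none had an unadjusted p under 0.05, the smallest being that of oligodendrocytes.

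Few genes were called between the groups, and Malat1 was called in none of the 9 classes nor in all nuclei. Over 9 classes edgeR called 10 of 79465 gene tests (0.0126%), 1 higher (0.00126%) and 9 lower in nonTV:Malat1 than in Malat1 ASO, and 4088 had an unadjusted p under 0.05 (5.14%). In all nuclei it called 0 of 21409 (0.00%), with 1239 at an unadjusted p under 0.05 (5.79%). DESeq2 called 4 genes in all nuclei (Adipor2, Fkbp5, Prl and Tnfaip6) and 4 in neurons (Fkbp5, mt-Co1, Pcsk1 and Prl), and none in the other 8 classes. None of the 10 edgeR calls passed without the replicate block or in DESeq2. Single libraries moved the count over the classes: it was 2 without nonTV:Malat1 replicate 1, 5 without ATV:BACE1 replicate 4, 21 without ATV:BACE1 replicate 5, 19 without nonTV:Malat1 replicate 5, 17 without OTV:Malat1 replicate 5 and 61 without Malat1 ASO replicate 5. The balance of directions moved too, with 43 higher and 18 lower without Malat1 ASO replicate 5, 10 higher and 9 lower without nonTV:Malat1 replicate 5, and 18 higher and 25 lower without the filter on low counts.

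Oligodendrocytes held 4 of the calls among 12362 genes (0.0324%). All 4 lost the call with called doublets left out (edgeR adjusted p = 0.0861 to 0.822), with Malat1 out of the library sizes (0.0565 to 0.0748) and without nonTV:Malat1 replicate 1 (0.735 to 0.968), Malat1 ASO replicate 1 (0.415 to 0.999) or ATV:BACE1 replicate 4 (0.0583 to 0.258). mt-Co1, a mitochondrially encoded subunit of cytochrome c oxidase, was 0.73 higher on the log2 scale in nonTV:Malat1 (SE 0.137, adjusted p = 0.0357). It stood at 249, 146 and 133 CPM in nonTV:Malat1 replicates 1, 4 and 5 and at 139 and 90.0 CPM in Malat1 ASO replicates 1 and 5. The groups overlapped, and the difference lay within replicates 1 and 5. The ATV:BACE1 mean was 113 CPM, and edgeR called nonTV:Malat1 minus ATV:BACE1 (0.64, adjusted p = 0.0452). The mitochondrial share of oligodendrocyte UMIs was 0.323% to 0.360% in nonTV:Malat1 and 0.318% to 0.329% in Malat1 ASO. Transcripts of mitochondria in a nuclear preparation come from outside the nucleus, and the part of such RNA in the difference was not tested.

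The other 3 oligodendrocyte calls were lower in nonTV:Malat1 than in Malat1 ASO. ATV:BACE1 means were 454 CPM for Adipor2, 26.1 CPM for Gucy1a2 and 38.7 CPM for Gm47283. edgeR called Malat1 ASO minus ATV:BACE1 for Adipor2 (0.85, adjusted p = 0.00409) and Gm47283 (1.99, adjusted p = 0.00322). It did not call it for Gucy1a2 (0.89, adjusted p = 0.185). For nonTV:Malat1 minus ATV:BACE1 it called none of them (0.10 for Adipor2, -0.28 for Gucy1a2, 0.33 for Gm47283). Adipor2, a receptor for adiponectin, stood at 603, 656 and 247 CPM in nonTV:Malat1 replicates 1, 4 and 5 and at 909 and 583 CPM in Malat1 ASO replicates 1 and 5 (log2 difference -0.75, SE 0.146, adjusted p = 0.0357). Its groups overlapped, while replicates 1 and 5 each had the lower value in nonTV:Malat1. Gucy1a2, a subunit of the soluble guanylate cyclase that answers nitric oxide, had 17.3, 29.1 and 18.9 CPM against 46.0 and 36.2 CPM (-1.17, SE 0.225, adjusted p = 0.0357). Gm47283, a predicted gene, had 28.3, 65.7 and 46.4 CPM against 220 and 87.0 CPM (-1.65, SE 0.323, adjusted p = 0.0357), and Malat1 ASO replicate 1 was its highest library.

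In microglia 3 of 3400 genes were called (0.0882%), all lower in nonTV:Malat1. Ntm, a neural cell adhesion molecule, had 94.4, 209 and 154 CPM in nonTV:Malat1 replicates 1, 4 and 5 and 327 and 497 CPM in Malat1 ASO replicates 1 and 5 (-1.73, SE 0.334, adjusted p = 0.0132). Gpc5, a heparan sulfate proteoglycan and a marker of astrocytes, had 56.6, 181 and 172 CPM against 371 and 341 CPM (-1.96, adjusted p = 0.0420). These counts were small: Gpc5 rested on 6, 13 and 10 UMIs in nonTV:Malat1 and 59 and 24 in Malat1 ASO. ATV:BACE1 had 575 ± 290 CPM of Ntm and 507 ± 444 CPM of Gpc5 (SD, n = 3). edgeR called nonTV:Malat1 minus ATV:BACE1 for Ntm (-1.84, adjusted p = 0.000559) and Gpc5 (-1.77, adjusted p = 0.0212). It called neither in Malat1 ASO minus ATV:BACE1 (-0.11 and 0.19, adjusted p = 0.993 for each). Astrocyte markers in the same nuclei summed to 634 to 731 CPM in nonTV:Malat1 and 862 to 864 CPM in Malat1 ASO, with 479 to 1352 CPM in ATV:BACE1. Gpc5 is itself in that list, and by its UMIs it makes up most of the difference between the sums of nonTV:Malat1 and Malat1 ASO. The sums are therefore not separate evidence, and the part of astrocyte RNA in the result was not tested. With called doublets left out, the adjusted p-values of Ntm and Gpc5 were 0.831 and 0.997, and with only the 5 libraries 0.960 and 0.998. Both calls were also lost without nonTV:Malat1 replicate 1 (edgeR adjusted p = 0.0987 and 0.500), replicate 4 (0.122 and 0.327) or replicate 5 (0.226 and 0.364), without Malat1 ASO replicate 1 (1.00 and 1.00), without ATV:BACE1 replicate 1 (0.0663 and 0.141) and without OTV:Malat1 replicate 1 (0.0542 and 0.281).

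Nuclei named leptomeningeal cells held 2 calls among 6529 genes (0.0306%), Zbtb16 and Htr2c. Both were lost without nonTV:Malat1 replicate 5 (edgeR adjusted p = 0.782) and with nuclei of 1000 UMIs or more (0.139 and 0.131). Zbtb16 was also lost without nonTV:Malat1 replicate 1 (0.816), and Htr2c without nonTV:Malat1 replicate 4 (0.316). At a prediction score of 0.8 or more Zbtb16 was lost (0.733) and Htr2c gave no value. Neither gene was called without Malat1 ASO replicate 5, nor was Zbtb16 without Malat1 ASO replicate 1. Each of these fits leaves 1 library of that group. Zbtb16, a zinc finger transcription factor, had 174, 215 and 59.6 CPM in nonTV:Malat1 replicates 1, 4 and 5 and 424 and 249 CPM in Malat1 ASO replicates 1 and 5 (-1.31, SE 0.248, adjusted p = 0.0136). Its ATV:BACE1 mean was 116 CPM. edgeR called Malat1 ASO minus ATV:BACE1 (1.65, adjusted p = 0.000717) and not nonTV:Malat1 minus ATV:BACE1 (0.35, adjusted p = 0.969). Htr2c, a serotonin receptor known for its high level in choroid plexus, had 24.5, 23.3 and 11.9 CPM against 39.7 and 244 CPM (-3.07, SE 0.567, adjusted p = 0.0136). Its high value came from 1 library, with 44 UMIs in Malat1 ASO replicate 5 and 2 to 9 UMIs in the other 4. ATV:BACE1 had 72.8 ± 86.7 CPM (SD, n = 3), and neither group differed from it past the edgeR threshold (adjusted p = 0.756 for nonTV:Malat1 and 0.432 for Malat1 ASO). Choroid plexus markers in these nuclei, mostly Ttr (1274 of 1433 CPM over all 11 libraries), summed to 1339 to 1789 CPM in nonTV:Malat1 and 1227 to 1501 CPM in Malat1 ASO. ATV:BACE1 covered 1060 to 1945 CPM.

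In pericytes 1 of 6189 genes was called (0.0162%), and its call was lost with called doublets left out (edgeR adjusted p = 0.738), with only the 5 libraries (0.626) and without nonTV:Malat1 replicate 1 (0.517) or Malat1 ASO replicate 1 (0.382). Called doublets made up 0% to 16.8% of pericyte nuclei in nonTV:Malat1 and 0% to 14.1% in Malat1 ASO. Pex5l, which encodes a regulator of HCN channels in neural cells, had 49.3, 158 and 70.1 CPM in nonTV:Malat1 replicates 1, 4 and 5 and 216 and 194 CPM in Malat1 ASO replicates 1 and 5 (-1.66, SE 0.305, adjusted p = 0.0260). Its ATV:BACE1 mean was 98.4 CPM, and neither group differed from it past the edgeR threshold (adjusted p = 0.999 for nonTV:Malat1 and 0.0789 for Malat1 ASO). St18 (-1.69, adjusted p = 0.0766), a transcription factor of myelinating cells, and Tmeff2 (-1.34, adjusted p = 0.116) came next and did not pass. Oligodendrocyte markers in these nuclei summed to 594 to 780 CPM in nonTV:Malat1 and 920 to 1207 CPM in Malat1 ASO, without overlap. Choroid plexus markers did not overlap either, in the other direction (766 to 1233 CPM against 559 to 719 CPM). The sums of the other marker lists overlapped, and the part of any list in the result was not tested.

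**Figure D5:**
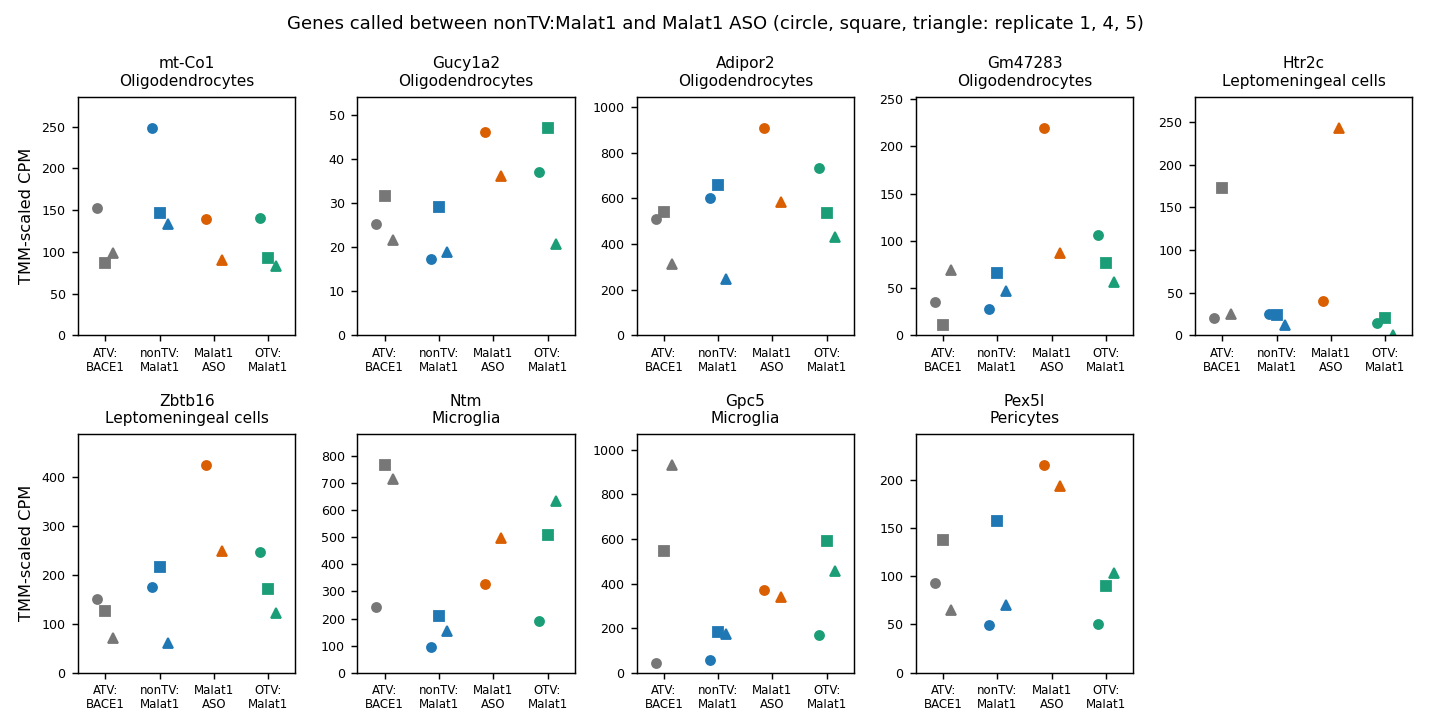
TMM-scaled CPM (y axis, from 0) of 9 genes called between nonTV:Malat1 and Malat1 ASO, 1 panel per gene and class, 1 point per library in each of the 4 groups (x axis), with circles, squares and triangles for replicates 1, 4 and 5. Htr2c is high in Malat1 ASO replicate 5 (244 CPM) and in 1 ATV:BACE1 library (173 CPM), and mt-Co1 is the 1 gene of the 9 with the higher mean in nonTV:Malat1.

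The genes nearest to the threshold elsewhere are given as values. In all nuclei they were Tnfaip6, a hyaluronan-binding protein (19.6, 15.9 and 13.2 CPM in nonTV:Malat1 and 30.1 and 18.6 CPM in Malat1 ASO), Fkbp5, a glucocorticoid-inducible cochaperone (37.4, 38.8 and 30.6 against 48.5 and 51.3 CPM), and Adipor2 (82.8, 81.5 and 59.7 against 113 and 92.8 CPM). Their log2 differences were -0.54, -0.52 and -0.48, each with an edgeR adjusted p of 0.706. In endothelium they were Npas3 (2.70, adjusted p = 0.229), Chka (-1.45, adjusted p = 0.273) and Nrg1 (-1.62, adjusted p = 0.273). Npas3, a transcription factor of neural cells, had 251, 33.8 and 192 CPM in nonTV:Malat1 and 42.3 and 19.2 CPM in Malat1 ASO. In glia they were Gm47283 (-1.67, adjusted p = 0.193), Piezo1 (-1.30, adjusted p = 0.825) and Nxph1 (1.53, adjusted p = 0.825).

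Genes that could take part in the entry, trafficking and action of the 2 molecules were followed as 12 lists, and no member passed the threshold in all nuclei or in the 4 classes. Of 12 receptors known to bind oligonucleotides or act as scavengers, 2 were tested in endothelium. Tfrc, the mouse transferrin receptor gene as the files name it, had 335, 372 and 470 CPM in nonTV:Malat1 replicates 1, 4 and 5 and 228 and 211 CPM in Malat1 ASO replicates 1 and 5 (log2 difference 0.73, SE 0.295, unadjusted p = 0.0181, adjusted p = 0.947). The groups did not overlap, which also held for 17.3% of the 4449 genes tested in endothelium, and ATV:BACE1 libraries ran from 297 to 546 CPM. Scarb1, a scavenger receptor for lipoproteins, differed by -0.18 (SE 0.345). Stab1 and Stab2, which clear oligonucleotides in liver, and Msr1 did not pass the filter on low counts in endothelium. Fcgrt, the Fc receptor that recycles antibodies, had 281, 304 and 316 CPM against 228 and 307 CPM in endothelium (0.22, SE 0.290, adjusted p = 0.999).

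The machinery of ASO action showed no call either. Of the 12 genes for RNase H and nuclear proteins that bind oligonucleotides, 12 were tested in oligodendrocytes, with a median log2 difference of 0.02 beside -0.01 over all 12362 genes, and none had an unadjusted p under 0.05, against 6.12% of all genes of the class. In endothelium 9 were tested, with a median of -0.06 beside -0.00024 over 4449 genes. Neat1, the paraspeckle RNA transcribed next to Malat1, overlapped between the groups in oligodendrocytes, with 1255, 1338 and 1354 CPM in nonTV:Malat1 and 1248 and 1325 CPM in Malat1 ASO (0.06, SE 0.114). In endothelium Neat1 differed by 0.21 (SE 0.279), in pericytes by -0.18 (SE 0.218) and in glia by -0.47 (SE 0.212, unadjusted p = 0.0340, adjusted p = 0.999).

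Endocytosis and endosomal sorting genes, 17 tested in endothelium and 18 in oligodendrocytes, had medians of 0.12 and -0.04, and none had an unadjusted p under 0.05, against 4.36% of all endothelial genes. Genes of nucleic acid sensing and the interferon response, which foreign nucleic acids can induce, had medians of 0.13 over 7 tested in endothelium and 0.08 over 7 tested in oligodendrocytes. Isg15, an interferon-induced ubiquitin-like protein, had 221, 220 and 201 CPM in nonTV:Malat1 and 271 and 144 CPM in Malat1 ASO in endothelium. Icam2, an adhesion molecule of endothelium, had 281, 253 and 374 CPM against 228 and 250 CPM (0.44, SE 0.295), and Vwf, a clotting factor carrier, had 102, 203 and 38.4 CPM against 195 and 134 CPM (-0.97, unadjusted p = 0.0274, adjusted p = 0.981). The 14 barrier genes had medians of -0.11 in endothelium and -0.06 in pericytes, and none had an unadjusted p under 0.05 (5.35% of all genes in pericytes). Cldn5, the main tight junction protein of brain endothelium, had 2752, 3362 and 3452 CPM in nonTV:Malat1 and 2801 and 3954 CPM in Malat1 ASO there.

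No identity gene of the 4 classes was called. Of 12 myelin genes in oligodendrocytes, with a median of -0.0043, 2 had an unadjusted p under 0.05, beside 6.12% of all genes of the class. Cldn11, a tight junction protein of myelin, differed by -0.45 (SE 0.129, adjusted p = 0.504) and Mobp by -0.29 (SE 0.123, adjusted p = 0.768), whereas Mbp differed by -0.09. The 9 pericyte genes tested in pericytes had a median of 0.13, with Pdgfrb, the receptor that defines them, at 0.07 (SE 0.194). Of 7 myelin genes tested in pericytes 3 had an unadjusted p under 0.05 (5.35% of all 6189 genes there), with a median of -0.62. Of 6 choroid plexus genes tested in oligodendrocytes 3 did (6.12% of all 12362 genes), with a median of 0.72. In glia the 9 choroid plexus genes tested had a median of 0.25 and the 8 ependymal genes one of 0.07. Ttr, the transthyretin gene of choroid plexus, had 4916, 5118 and 3181 CPM in nonTV:Malat1 and 4246 and 2442 CPM in Malat1 ASO in glia (0.39, SE 0.218, adjusted p = 0.999).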

How the data were processed

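Nuclear RNA was captured with droplets from frozen brain after lysis and a sucrose cushion, per the labels' protocols. The submitters' processing notes name Cell Ranger 5.0.0, Seurat 4 and mm10, without roles. The deposited matrix holds whole-number UMI counts of 25938 genes, not normalized, per the file headers, and its sums equalled the deposited totals in 110304 of 110304 nuclei. The authors' deposited metadata hold, per nucleus, the mitochondrial percent, a doublet call and the prediction score of its class, which is a fraction.

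UMI counts were summed per library and deposited class. Classes needed 20 nuclei in each of at least 2 libraries of both groups. edgeR 4.0.16 in R 4.3.3 (quasi-likelihood test, TMM, filterByExpr) was fitted to all 11 libraries of the 4 groups with the replicate number as a block (smooth muscle, where 3 libraries fell under the minimum of 20 nuclei, had 8 libraries and no contrast with ATV:BACE1), since the 5 libraries alone leave 1 residual degree of freedom. The Benjamini-Hochberg adjustment ran over all genes of each fit, with a threshold of 0.05. Differences between classes were interactions in 1 fit over 4 classes with a term for each library. DESeq2 1.42.0 and limma 3.58.1 were alternatives. Numpy 2.4.6, scipy 1.17.1 and pandas 2.3.3 served the rest. Scripts were tested on simulated data.

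The pairing comes from the deposited batch column, where batches 1, 3 and 4 are replicates 1, 4 and 5. Same-numbered libraries correlated in their deviations from group means (r 0.390 to 0.850 over 15 pairs). Batch, number, sex and age cannot be told apart. The labels give each library its own replicate number but do not state that each is 1 mouse, so p-values measure the spread between libraries. Malat1 levels and marker sums are shares of UMIs, and CPM of single genes by library are TMM-scaled after the filter on low counts. Exact permutation tests exchanged libraries across batches.

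Genes were named by this rule: Malat1 in each class, all genes called (at most 15 a class), the 3 smallest p-values in all nuclei and the 4 named classes, and up to 4 abundant members of each list. Genes named beyond it, including Cldn11, Vwf and the DESeq2 calls, were chosen after their values were seen. The members and gene lists were chosen with earlier results of these data known. The ASO sequence is not given in the sources used here. Some genes that met the naming rule are not reported here.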

Additional observations from a re-analysis of the deposited data

Results flagged for a closer look

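The Malat1 difference between nonTV:Malat1 and Malat1 ASO was compared between vascular endothelium and oligodendrocytes by an unadjusted interaction test. The endothelial log2 difference exceeded that of oligodendrocytes by 0.78 (edgeR, unadjusted p = 0.0450, adjusted p = 1.00 over all genes). In this contrast 524 of 11367 genes had an unadjusted p under 0.05, so the unadjusted value alone does not set Malat1 apart. Within a library the endothelial to oligodendrocyte ratio was lower in 2 of 2 Malat1 ASO libraries than in each of the 3 nonTV:Malat1 libraries. The pair was flagged because the shares of the 2 classes parted in opposite directions, which fixes this order of the ratios in advance.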

How the results depend on the processing

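The Malat1 direction in endothelium, pericytes, oligodendrocytes and glia was the same in each alternative run and in each fit without 1 library. Of 603 alternative values, 545 kept direction and call or, where there was no test, moved by less than 1 SD. Of these, 5 differences in low nuclei of astrocytes, leptomeningeal cells and neurons lay on the other side of 0. Another 39 changed direction. With nuclei of 1000 UMIs or more, microglia and smooth muscle gave no value, and smooth muscle gave none at a prediction score of 0.8 or more.

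The call for Malat1 changed in oligodendrocytes without the filter on low counts (-0.45), and DESeq2 called endothelium minus oligodendrocytes (0.81) and pericytes minus oligodendrocytes (0.63). Of near-zero differences, total counts turned all nuclei (0.015), neurons (0.027), astrocytes (0.012) and smooth muscle (0.017). Equal weight per nucleus turned neurons (0.0061) and astrocytes (0.0037), doublets left out turned smooth muscle (0.0032), and a score of 0.8 or more turned pericytes minus glia (-0.024). In numbers of nuclei, the fit of only the 5 libraries turned neurons (-0.020) and smooth muscle (0.090), and the score turned perivascular macrophages (0.362) and smooth muscle (0.865). The cause was not tested. The difference in low pericyte nuclei was -14.4 points after thinning to 500 UMIs.

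Without the replicate block no gene was called over the classes (0 against 10), astrocyte Malat1 turned (0.00082), as did nuclei of neurons (-0.018), and no other call changed. Counts of called genes over the classes were 4 with DESeq2, 5 with total counts, 4 with Malat1 out of the library sizes, 43 without the filter on low counts, 16 with only the 5 libraries and 3 without doublets, and 2 to 61 without 1 library. In all nuclei DESeq2 called 4.

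Without 1 library, Malat1 ranged from -0.11 to 0.048 in all nuclei, -0.045 to 0.039 in neurons, -0.57 to -0.29 in oligodendrocytes, -0.14 to 0.10 in astrocytes, -0.020 to 0.23 in leptomeningeal cells, 0.13 to 0.33 in pericytes, 0.058 to 0.15 in glia, -0.27 to -0.11 in microglia and -0.15 to 0.21 in smooth muscle. Numbers of nuclei ranged from -0.087 to 0.60 in leptomeningeal cells, -0.026 to 0.026 in neurons, -0.34 to 0.38 in pericytes, -0.29 to 0.064 in perivascular macrophages and -0.69 to 0.45 in smooth muscle.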
